A study of Mus musculus with 10 samples.

Results

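The T cell receptor and CD3 complex was followed here through 10 genes: the receptor chain constant genes Trac, Trbc1 and Trbc2, the CD3 chain genes Cd3d, Cd3e, Cd3g and Cd247, the coreceptor genes Cd4 and Cd8a, and the kinase gene Lck. They were taken by symbol from the gene count table, and all 10 were found among its 54532 rows. All 10 also passed the filter on low counts, which left 14244 genes for testing. The members were named with earlier results of these libraries known.

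The libraries came from livers of mice dosed by mouth every day for 7 days with napabucasin (BBI608), a small molecule known as an inhibitor of STAT3-driven transcription, at 20 mg/kg body weight, or with its vehicle, 1% NaCMC (sodium carboxymethyl cellulose). Each arm had 5 libraries of poly(A)-selected RNA, labelled as biological replicates, and the study asked which liver genes and pathways the compound affects. Strain, sex, age and any genetic modification of the mice were not given in the sources used here. The labels do not say what mice of equal replicate number share.

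An alpha-beta T cell recognises antigen through a pair of variable chains, alpha and beta, each joined to a constant region encoded by Trac or by Trbc1 or Trbc2. These chains have short tails and signal through CD3 delta, epsilon, gamma and zeta, which carry the motifs that Lck phosphorylates, while CD4 or CD8 brings Lck to the receptor. In the liver such cells lie mainly in the sinusoids and portal tracts, beside natural killer (NK) cells, gamma-delta T cells, Kupffer cells and B cells, and some members are shared: NK cells also use Cd247 and Lck, and some dendritic cells carry Cd8a or Cd4.

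The beta chain has 2 constant genes, which sit 6848 bases apart on the forward strand of chromosome 6 in the GRCm38 build, and reads from one can be assigned to the other. Trbc1 occupies chr6:41538218-41539881 and Trbc2 chr6:41546730-41548352, and each has 4 coding exons. Over 518 coding bases in GENCODE M21 transcripts, 23 differed and 95.6% were identical. Of the 375 bases of exon 1, which encodes most of the extracellular constant domain, only 1 differed, at position 260 counted from the first base of exon 1. The stretch around it, positions 230 to 290 of the exon 1 numbering, is shown to make plain how little there separates the genes; the capital marks the differing base.
Trbc1: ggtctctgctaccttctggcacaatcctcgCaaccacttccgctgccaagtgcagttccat
Trbc2: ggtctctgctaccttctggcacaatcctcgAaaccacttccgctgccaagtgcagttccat
The longest run of identical bases was 259. The other 22 coding differences lay from position 383 on. The end of the coding sequence, positions 373 to 518, is therefore shown as well, with capitals again marking differing bases; the untranslated parts of the genes were not compared.
Trbc1: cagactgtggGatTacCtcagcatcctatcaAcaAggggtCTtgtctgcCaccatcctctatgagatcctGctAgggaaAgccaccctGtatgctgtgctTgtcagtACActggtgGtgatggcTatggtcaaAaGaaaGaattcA
Trbc2: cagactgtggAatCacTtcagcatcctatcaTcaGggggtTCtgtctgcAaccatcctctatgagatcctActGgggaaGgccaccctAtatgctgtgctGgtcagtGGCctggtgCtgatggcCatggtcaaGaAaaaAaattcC

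The 3 CD3 genes other than Cd247 form a cluster on chromosome 9 of GRCm38. Cd3g (chr9:44969572-44980431, reverse strand) and Cd3d (chr9:44981786-44987339, forward strand) point away from each other with 1354 bases between them, and Cd3e (chr9:44998740-45009627, reverse strand) ends 11400 bases beyond Cd3d. The 250 bases before each start in RefSeq (GRCm38.p6) are shown because these neighbours are CD3 members whose estimates spread from 1.70-fold to 3.93-fold, a difference between genes that was not tested; capitals mark AGGAAG on either strand, the core of sites for ETS transcription factors, which are known regulators of T cell genes.
Cd3g, chr9:44980432-44980681, reverse strand: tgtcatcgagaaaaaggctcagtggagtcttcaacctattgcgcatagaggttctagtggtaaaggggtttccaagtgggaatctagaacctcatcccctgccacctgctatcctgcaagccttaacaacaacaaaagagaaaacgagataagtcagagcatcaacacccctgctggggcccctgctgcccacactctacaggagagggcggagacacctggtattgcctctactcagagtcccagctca
Cd3d, chr9:44981536-44981785, forward strand: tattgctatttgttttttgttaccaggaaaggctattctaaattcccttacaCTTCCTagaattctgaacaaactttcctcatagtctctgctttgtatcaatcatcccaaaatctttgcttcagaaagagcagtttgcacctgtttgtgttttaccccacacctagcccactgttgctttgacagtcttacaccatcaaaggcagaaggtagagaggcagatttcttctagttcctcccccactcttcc
Cd3e, chr9:45009612-45009861, reverse strand: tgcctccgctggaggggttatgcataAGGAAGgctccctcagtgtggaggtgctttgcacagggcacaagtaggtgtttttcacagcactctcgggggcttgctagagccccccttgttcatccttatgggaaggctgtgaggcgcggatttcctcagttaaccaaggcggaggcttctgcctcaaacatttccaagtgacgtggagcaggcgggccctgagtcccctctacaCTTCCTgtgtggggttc
The window of Cd3g held no match, that of Cd3d 1 and that of Cd3e 2. RefSeq entries were matched for 6 members, with 7 windows because Lck has 2 starts, and not for Trac, Trbc1, Trbc2 and Cd4. AGGAAG was present in 5 of the 7 windows and in 29.5% of all 32851 windows of this length. TGTGGT, a core of RUNX sites, was present in 1 of 7 against 14%, and the E-box CANNTG in 6 of 7 against 66.2%. These are matches of letters in a window, on both strands, and no binding was measured.

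The library totals ran from 14124484 to 17759967 counts in vehicle and from 15364342 to 17369118 in napabucasin, and the liver origin was plain: summed hepatocyte markers reached 41360 to 150600 CPM (counts scaled to library size) and 71600 to 126200. Against that depth the members were rare. Together they had 181 to 440 counts per vehicle library and 330 to 953 per napabucasin library. The share of counts from mitochondrial genes was 19.02%, 7.09%, 7.04%, 8.78% and 7.03% in vehicle replicates 1 to 5 and 19.9%, 15.3%, 10.4%, 9.03% and 11.4% in napabucasin replicates 1 to 5. It was higher in napabucasin at each replicate number, and vehicle replicate 1 alone kept the groups from separating. Ribosomal RNA genes held 0.195% to 0.912% in vehicle and 0.426% to 1.10% in napabucasin. The part of these shares in the members' differences was not tested.

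All 10 members had higher means in napabucasin livers, with log2 fold changes from 0.70 to 1.97 and a median of 1.29, against a median of 0.00 over all tested genes, of which 50.1% lay higher. Summed over the 10, the level was 15.5, 20.2, 16.5, 12.3 and 15.6 CPM in vehicle replicates 1 to 5 and 44.3, 51.6, 41.8, 33.4 and 22.6 CPM in napabucasin replicates 1 to 5. The groups did not overlap in this sum, and napabucasin replicate 5 came nearest to vehicle. No member passed the threshold, an adjusted p of 0.05 in edgeR's quasi-likelihood test with Benjamini-Hochberg adjustment over all genes, and no gene of the whole table did (0% called; the smallest adjusted p was 0.0644). At an unadjusted p under 0.05, 8 of the 10 members lay higher in the same test, against 9.34% of all tested genes. The exceptions were Cd4 and Cd247. Since the members were chosen with results of these libraries known, these counts describe the group and are not independent evidence of its direction. A bulk liver library cannot tell more T cells from more receptor RNA in each T cell.

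Other tools made calls. DESeq2 put 5 members past an adjusted p of 0.05 in the higher direction, Cd3d, Trbc1, Trbc2, Lck and Cd8a, where it called 1.07% of the genes to which it gave an adjusted p. limma-voom with sample quality weights called 3, Cd3d, Trbc1 and Trbc2, against 0.807% of tested genes. With the replicate number as a block, edgeR called none of the 10, and 8 lay higher at an unadjusted p under 0.05, against 11.8% of all genes. In 3 members, Cd3d, Cd3g and Trbc1, every napabucasin library lay above every vehicle library, which held for 1.21% of tested genes. Each test weighs a difference against the variation among these libraries, which the labels call biological replicates without naming the mice.

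**Figure D1:**
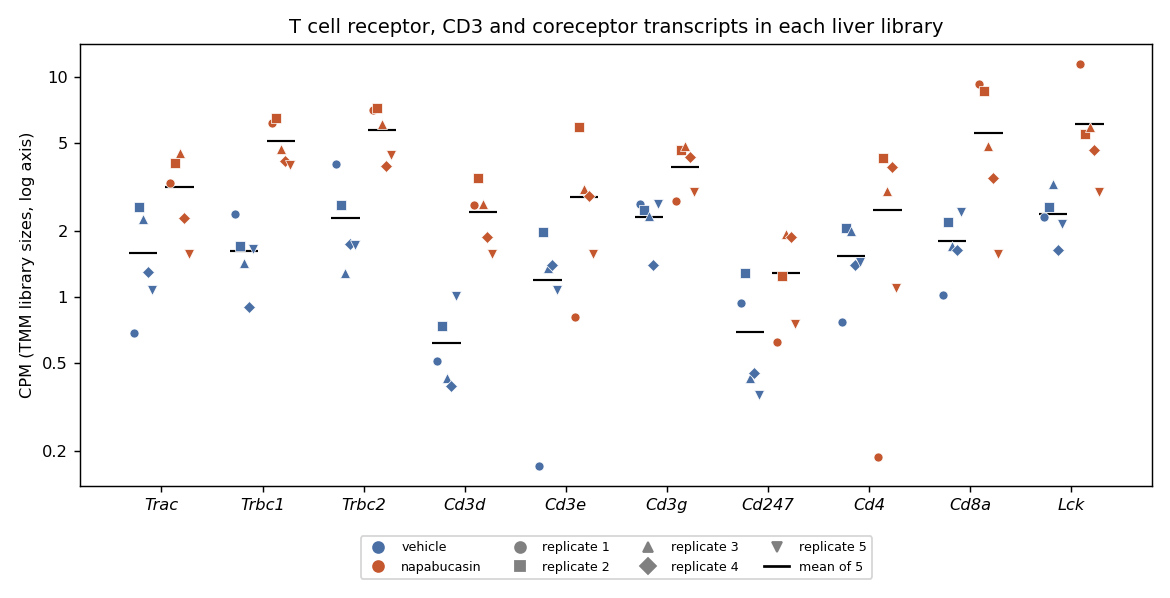
CPM on a log axis of each of the 10 members in the 5 vehicle (blue) and 5 napabucasin (orange) livers; each point is a library, its shape gives the replicate number, and black bars mark group means. In Cd3d, Cd3g and Trbc1 the groups do not overlap, while in Cd4 napabucasin replicate 1 lies at the bottom with 0.187 CPM.

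The beta chain constant genes gave the best separated values of the receptor chains. Trbc1 stood at 2.39, 1.70, 1.42, 0.899 and 1.65 CPM in vehicle replicates 1 to 5 and at 6.17, 6.49, 4.70, 4.17 and 3.97 CPM in napabucasin replicates 1 to 5. The lowest treated liver was thus above the highest vehicle liver, which was replicate 1. The means were 1.61 ± 0.540 and 5.10 ± 1.16 CPM (SD, n = 5 each), a 3.18-fold difference (log2 1.67, SE 0.30, 95% interval 1.03 to 2.30; edgeR adjusted p = 0.157). This was the 4th smallest p of the table. Without vehicle replicate 1, the highest vehicle library, the edgeR adjusted p of Trbc1 was 0.0495. Leaving out any other single library it ran from 0.0879 to 0.426.

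Trbc2 was counted at 4.02, 2.62, 1.28, 1.74 and 1.72 CPM in the vehicle livers and at 7.11, 7.25, 6.14, 3.95 and 4.45 CPM in the treated livers. Vehicle replicate 1 alone reached into the treated range, just above napabucasin replicate 4, and it was 2.18 times the mean of the other vehicle libraries. The fold was 2.55 (log2 1.35, SE 0.33; edgeR adjusted p = 0.185). Because reads can be exchanged between the pair, their counts were also summed: 3.89 ± 1.56 CPM in vehicle and 10.9 ± 2.63 CPM in napabucasin, a 2.81-fold difference (log2 1.49, SE 0.28; edgeR adjusted p = 0.157). With the replicate block the summed value was 1.53 on the log2 scale with an edgeR adjusted p of 0.0481, which is past the threshold. The labels do not give the pairing that this block assumes.

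Trac, the constant gene of the alpha chain (chr14:54220521-54224206), stood at 0.684, 2.57, 2.27, 1.29 and 1.08 CPM in vehicle and at 3.30, 4.06, 4.53, 2.30 and 1.57 CPM in napabucasin. Vehicle replicates 2 and 3 lay within the treated range, and napabucasin replicates 4 and 5 lay within the vehicle range. The difference was 1.97-fold (log2 0.98, SE 0.40; edgeR adjusted p = 0.301).

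Of the CD3 chains, Cd3d had the largest fold of the 10 members. CD3 delta pairs with epsilon in the assembled receptor. Cd3d stood at 0.513, 0.735, 0.426, 0.393 and 1.01 CPM in vehicle and at 2.62, 3.46, 2.65, 1.87 and 1.57 CPM in napabucasin, with no overlap. This was a 3.93-fold difference (log2 1.97, SE 0.37, 95% interval 1.17 to 2.78; edgeR adjusted p = 0.157). It rests on few reads: 6 to 16 counts in each vehicle library and 23 to 64 in each treated library. The vehicle coefficient of variation, 41.6%, was not far above the 31.9% that counting alone gives.

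Its divergent neighbour Cd3g, whose product also pairs with epsilon, was counted at 2.65, 2.48, 2.35, 1.41 and 2.66 CPM in vehicle and at 2.74, 4.65, 4.87, 4.33 and 3.01 CPM in napabucasin. The groups did not overlap, but napabucasin replicate 1 exceeded vehicle replicate 5 by little. The fold was 1.70 (log2 0.77, SE 0.28; edgeR adjusted p = 0.270).

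Cd3e, the chain shared by both CD3 dimers, stood at 0.171, 1.98, 1.35, 1.41 and 1.08 CPM in vehicle and at 0.811, 5.95, 3.10, 2.89 and 1.57 CPM in napabucasin. The lowest library of each group was its replicate 1, with 2 counts in vehicle (exact Poisson 95% interval 0.242 to 7.22) and 13 in napabucasin (6.92 to 22.2). The highest was replicate 2 in each group. The fold was 2.35 (log2 1.23, SE 0.55; edgeR adjusted p = 0.319), and it was 0.78 on the log2 scale without napabucasin replicate 2.

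Cd247 encodes the zeta chain (chr1:165788681-165877277, forward strand), which carries most of the signalling motifs of the complex. It had 0.941, 1.29, 0.426, 0.450 and 0.359 CPM in vehicle and 0.624, 1.24, 1.94, 1.87 and 0.753 CPM in napabucasin. Vehicle replicate 2 was as high as napabucasin replicate 2, and the groups overlapped broadly (1.84-fold, log2 0.88, SE 0.48; edgeR adjusted p = 0.389). Pou2f1 overlaps Cd247 on the opposite strand, with 71 to 156 counts a library, and the strand setting of the counting is not given in the sources used here.

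**Figure D2:**
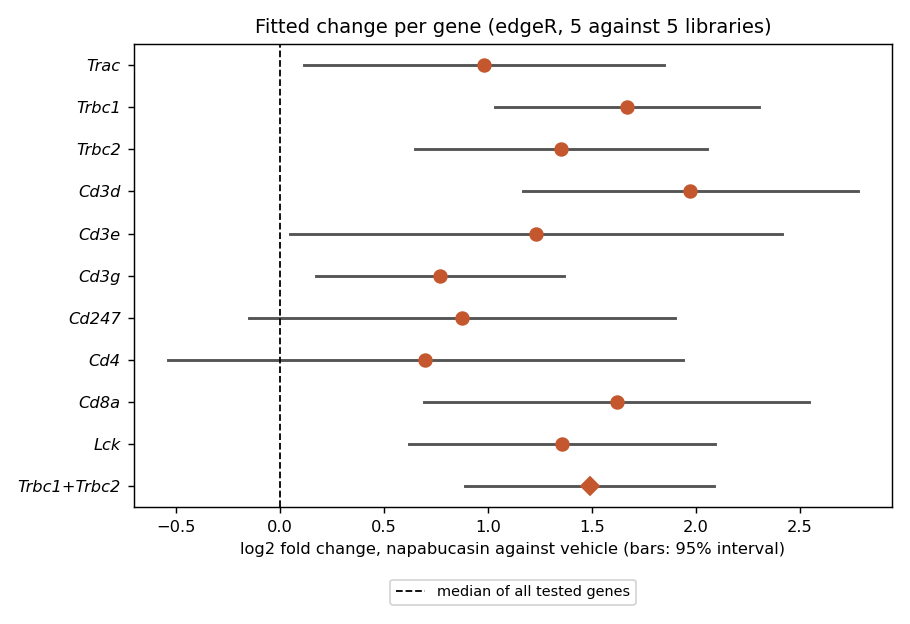
Log2 fold change, napabucasin over vehicle, of each member and of Trbc1 and Trbc2 summed, from edgeR with 95% intervals (n = 5 each); the dashed line marks the median of all tested genes, 0.00. All estimates lie above 0, and the intervals of Cd247 and Cd4 reach below it.

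Among the coreceptors, Cd8a (chr6:71373427-71379173) marks cytotoxic T cells and pairs with itself or with CD8 beta. It stood at 1.03, 2.20, 1.71, 1.63 and 2.44 CPM in vehicle and at 9.29, 8.66, 4.87, 3.47 and 1.57 CPM in napabucasin. Napabucasin replicates 1 to 4 lay above every vehicle liver, and napabucasin replicate 5 lay below 4 of them. The fold was 3.07 (log2 1.62, SE 0.43; edgeR adjusted p = 0.221). Treated livers varied by a coefficient of 59.7%, against 10.2% from counting.

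Cd4 (chr6:124864692-124888221), the coreceptor of helper T cells, was counted at 0.770, 2.07, 1.99, 1.41 and 1.44 CPM in vehicle and at 0.187, 4.27, 3.04, 3.90 and 1.10 CPM in napabucasin. Napabucasin replicate 1, which had the most Cd8a, had the least Cd4, with 3 counts (exact Poisson 95% interval 0.619 to 8.77). The fold was 1.62 (log2 0.70, SE 0.58, 95% interval -0.54 to 1.94; edgeR adjusted p = 0.551). The estimate was 1.00 without napabucasin replicate 1, 0.42 without napabucasin replicate 2 and 0.41 with the replicate block.

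Lck (chr4:129548344-129573641), the kinase that phosphorylates the CD3 motifs, stood at 2.31, 2.57, 3.27, 1.63 and 2.15 CPM in vehicle and at 11.5, 5.52, 5.92, 4.65 and 3.01 CPM in napabucasin. Only napabucasin replicate 5 fell within the vehicle range. The difference was 2.56-fold (log2 1.36, SE 0.34; edgeR adjusted p = 0.196), and 1.01 on the log2 scale without napabucasin replicate 1, the highest library.

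The members did not keep the same proportions in every library. In napabucasin replicate 1, Cd4 was at 0.0608 of the mean of the other 4 treated libraries, Cd3e at 0.240 and Cd247 at 0.430, while Lck and Cd8a were the highest of the group. In vehicle replicate 1, Cd3e was at 0.118, Trac at 0.379, Cd4 at 0.446 and Cd8a at 0.514 of the mean of the other vehicle libraries, while Cd247 was at 1.49 and Trbc2 at 2.18. These libraries are also the pair with the highest mitochondrial shares; the part of that in the pattern was not tested. With both left out, 8 members lay higher at an unadjusted p under 0.05, against 7.44% of all tested genes in that fit, and the median log2 fold change was 1.18. Trac (log2 0.78) was no longer among the 8 and Cd247 (log2 1.16) was. Without the 3 libraries of highest ribosomal RNA gene share, vehicle replicate 2 and napabucasin replicates 1 and 2, the same 8 genes lay higher at that level, against 5.28% of all tested genes. The median was then 1.13, with Cd8a at 0.98 and Cd247 at 1.52. Both selections were made after seeing the data.

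**Figure D3:**
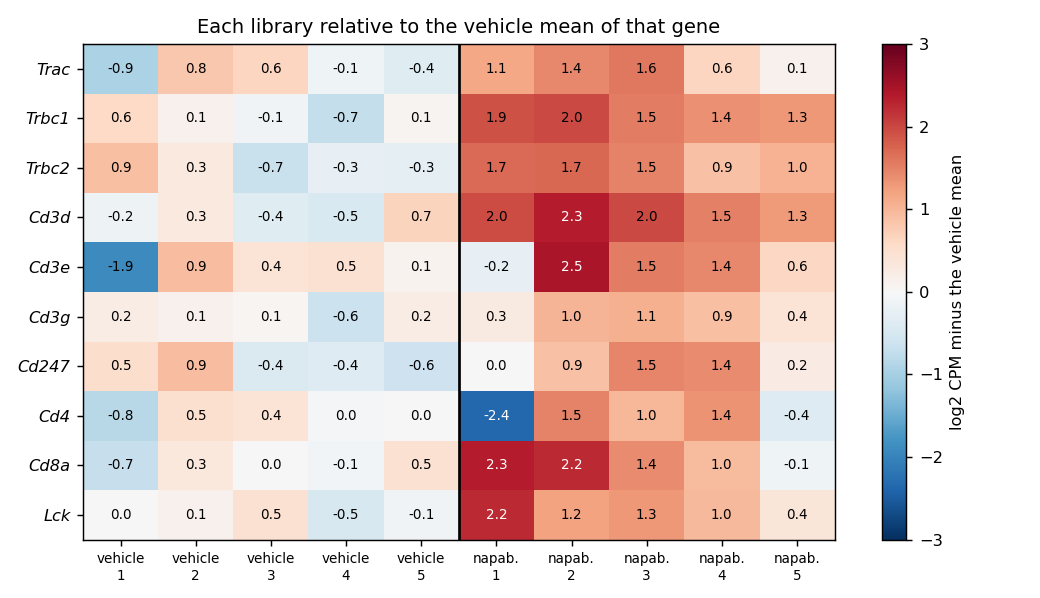
Log2 CPM of each member (rows) in each library (columns) minus the vehicle mean of that gene, with a prior count of 2; red is above and blue below the vehicle mean. Treated columns are mostly red. Blue cells are Cd4 (-2.4) and Cd3e (-0.2) in napabucasin replicate 1, and Cd4 (-0.4) and Cd8a (-0.1), both pale, in napabucasin replicate 5.

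Ratios within a library do not depend on how its total is scaled. Cd8a made up 54.3% ± 6.27 of Cd8a plus Cd4 counts in vehicle (SD, n = 5, range 46.2% to 63.0%) and 66.5% ± 19.1 in napabucasin (47.1% to 98.0%). The difference of 12.2 percentage points did not pass an exact two-sided permutation test (p = 0.206, 0.27 adjusted over 3 shares). It was 17.1 without napabucasin replicate 4 (permutation p = 0.0317, adjusted 0.0952) and 4.32 without napabucasin replicate 1. That library had 149 Cd8a counts of 152, or 98.0% (exact 95% interval 94.3% to 99.6%). Trbc1 made up 42.5% ± 7.94 of beta chain counts in vehicle and 47.1% ± 2.83 in napabucasin (exact permutation p = 0.246, adjusted 0.27). The difference of 4.65 points was 2.55 without vehicle replicate 4 and 7.19 without vehicle replicate 3. Trac made up 29.9% ± 13.8 of the alpha and beta constant counts in vehicle and 22% ± 5.00 in napabucasin (exact permutation p = 0.270, adjusted 0.27). In vehicle replicate 1 the Trac share was 9.64% (8 of 83 counts, exact 95% interval 4.25% to 18.1%). The difference of -7.94 points was -13.0 without that library (permutation p = 0.0317, adjusted 0.0952) and -4.00 without vehicle replicate 3. With all 10 libraries none of the 3 shares differed beyond the spread between livers in this test, where the smallest p possible was 0.0079. Leaving out 1 library, the smallest adjusted permutation p was 0.0952.

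**Figure D4:**
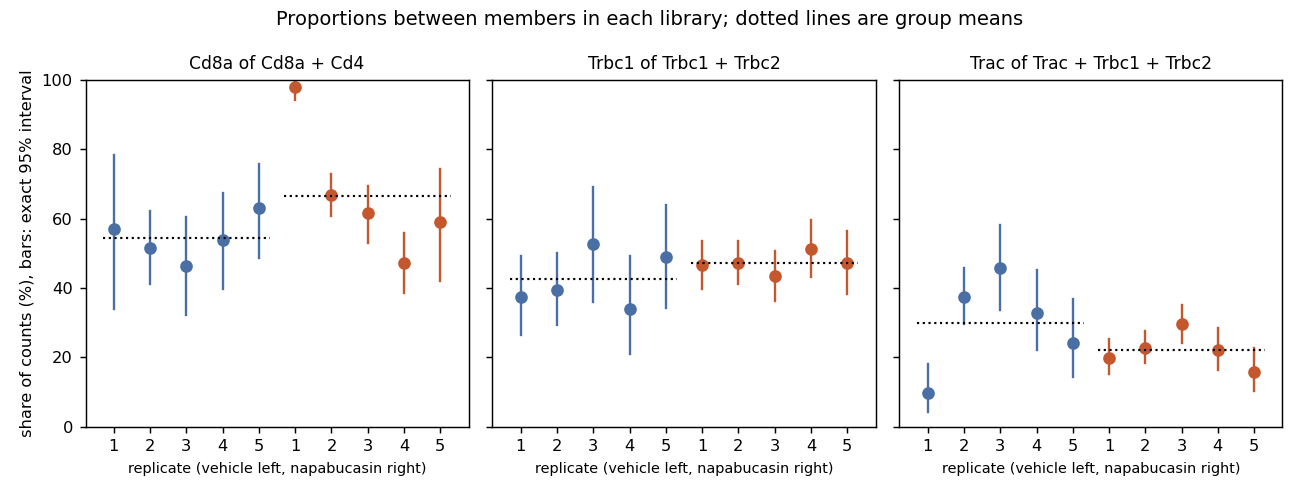
Share of Cd8a in Cd8a plus Cd4 counts, of Trbc1 in Trbc1 plus Trbc2 counts, and of Trac in Trac plus Trbc1 plus Trbc2 counts, in percent, for each vehicle (blue) and napabucasin (orange) liver; bars are exact 95% binomial intervals and dotted lines are group means (n = 5). The groups overlap in all 3 panels, and napabucasin replicate 1 stands at 98.0% in the first.

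Per kilobase of gene, in the deposited FPKM (fragments scaled to gene length and library size), the order in vehicle was Trbc2 (3.26 ± 1.52), Trbc1 (2.14 ± 0.702), Trac (1.68 ± 0.844), Lck (0.809 ± 0.203), Cd3g (0.701 ± 0.159), Cd8a (0.493 ± 0.154), Cd4 (0.378 ± 0.128), Cd3d (0.337 ± 0.144), Cd3e (0.291 ± 0.159) and Cd247 (0.128 ± 0.0735). Neighbours in that order differed by more than the larger of their SDs in 3 of 9 pairs, namely Trac and Lck, Cd3g and Cd8a, and Cd3e and Cd247. In napabucasin the top 4 kept their places, from Trbc2 at 8.24 ± 2.14 to Lck at 2.06 ± 1.06 FPKM, and Cd247 was again the lowest at 0.239 ± 0.115. Cd8a (1.51 ± 0.893) and Cd3d (1.32 ± 0.404) stood above Cd3g (1.19 ± 0.303). There, 2 of 9 neighbouring pairs differed by more than the larger SD, Trbc1 from Trac and Cd3g from Cd3e.

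Behind the receptor, 26 genes of its signalling path were listed and 21 tested. Of these, 10 lay higher at an unadjusted edgeR p under 0.05, against 9.34% of all tested genes. None lay lower at that level, against 5.83% of all tested genes. None passed after adjustment, and the median log2 fold change was 0.63. Among those with the smallest p-values were the adaptor Grap2 (log2 1.14, SE 0.29, edgeR adjusted p = 0.196), Rhoh (log2 1.11, SE 0.30, adjusted p = 0.221) and the kinase Fyn (log2 0.88, SE 0.24, adjusted p = 0.221). Zap70, the kinase recruited to the phosphorylated CD3 motifs, had a lower mean in napabucasin, 5.99 ± 1.71 against 10.2 ± 7.51 CPM (log2 -0.76, SE 0.39, edgeR adjusted p = 0.368). Its libraries ran from 4.38 to 23.2 CPM in vehicle and from 3.68 to 7.69 CPM in napabucasin, so the groups overlapped. Zap70 was chosen for mention after its values were seen, and of the tested genes only Bcl10 and Nfatc2 also lay below 0. Of the genes dropped by the filter, Trat1, Ubash3a and Sit1 had lower means in napabucasin, and Themis and Sh2d1a higher means. These had 28 to 84 counts each over the 10 libraries.

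At an unadjusted edgeR p under 0.05, 9.34% of all tested genes lay higher and 5.83% lower. Of 13 tested T cell surface genes, 6 lay higher at that level and none lower, with a median of 0.80. They included Cd69, an early activation and tissue residence marker (log2 1.83, edgeR adjusted p = 0.182), Ccr7, a lymph node homing receptor (log2 1.41, adjusted p = 0.227), and Cd2 (log2 1.18, adjusted p = 0.228). Cd8b1, the partner of Cd8a, was at 0.767 ± 0.296 and 1.23 ± 0.777 CPM (log2 0.68, edgeR adjusted p = 0.471). Among 12 tested transcription factor genes of T cells, 2 lay higher at that level, Ikzf3 (log2 1.74, edgeR adjusted p = 0.157) and Satb1, and 1 lower, Tox (log2 -0.63, adjusted p = 0.274). Whether these small counts depart from the shares over all tested genes was not tested. Of the 12, 11 lay above 0, with a median of 0.55, and Tcf7 was at 0.11 (SE 0.23, edgeR adjusted p = 0.837).

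Marker lists of other cell types were counted in the same way. The background was 9.34% of all tested genes for higher and 5.83% for lower, and no gene of these lists passed after adjustment. B cell markers lay higher at an unadjusted edgeR p under 0.05 in 8 of 10, with summed levels of 24.3 to 32.8 CPM in vehicle and 52.6 to 88.0 CPM in napabucasin that did not overlap. NK and innate lymphoid markers lay higher in 6 of 11 (43.8 to 139 and 68.1 to 190 CPM), gamma-delta T cell markers in 3 of 6 (13.6 to 27.4 and 18.7 to 29.4 CPM), dendritic cell markers in 4 of 8 (18.1 to 33.8 and 26.6 to 73.3 CPM), and general leukocyte markers in 3 of 8 (92.3 to 283 and 134 to 404 CPM). Kupffer cell and macrophage markers did so in 2 of 10 (372.5 to 1940 and 717.6 to 2609 CPM) and neutrophil markers in 1 of 6 (15.7 to 55.0 and 20.4 to 68.5 CPM). Red cell markers did so in none of 4, with sums of 14.8 to 191 and 18.5 to 164 CPM. No marker of these lists lay lower at that level. Hepatocyte markers lay lower in 1 of 6, Cps1 (log2 -0.59, edgeR adjusted p = 0.286). On average, most of the NK and innate lymphoid sum was Fcer1g (vehicle and napabucasin means of 39.5 and 57.4 CPM) and Tyrobp (28.0 and 43.2 CPM). Most of the gamma-delta sum was Zbtb16 (11.3 and 7.27 CPM) and Sox13 (7.86 and 6.31 CPM). These genes were named after their values were seen. The other 4 tested gamma-delta genes had higher means, among them Trdc, the delta chain constant gene (0 to 0.513 and 0.641 to 1.37 CPM). The part of these marker lists in the members' differences was not tested.

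Relative to the general leukocyte markers, the 10 members amounted to 16.8%, 7.14%, 7.78%, 4.61% and 9.03% in vehicle replicates 1 to 5 and to 14.2%, 13.3%, 11.9%, 8.26% and 16.8% in napabucasin replicates 1 to 5. Vehicle replicate 1 and napabucasin replicate 5, the libraries with the lowest leukocyte sums of their groups, had the highest ratios, and the groups overlapped. Of 4 genes of immature thymocytes, 3 were at or near 0, with 1 count of Rag1, 0 of Rag2 and 4 of Ptcra over the 10 libraries. The other, Dntt, had 308 counts, with 2.56 ± 0.897 CPM in vehicle and 1.10 ± 0.584 CPM in napabucasin (log2 -1.21, SE 0.44, edgeR adjusted p = 0.272). Of lymph node stroma genes 2 were tested, with sums of 8.04 to 75.1 and 18.6 to 79.3 CPM; Ccl21a had a log2 fold change of 2.36 (edgeR adjusted p = 0.185; it has near-identical copies), Glycam1 0 counts, Madcam1 3 and Ccl19 1.

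**Figure D5:**
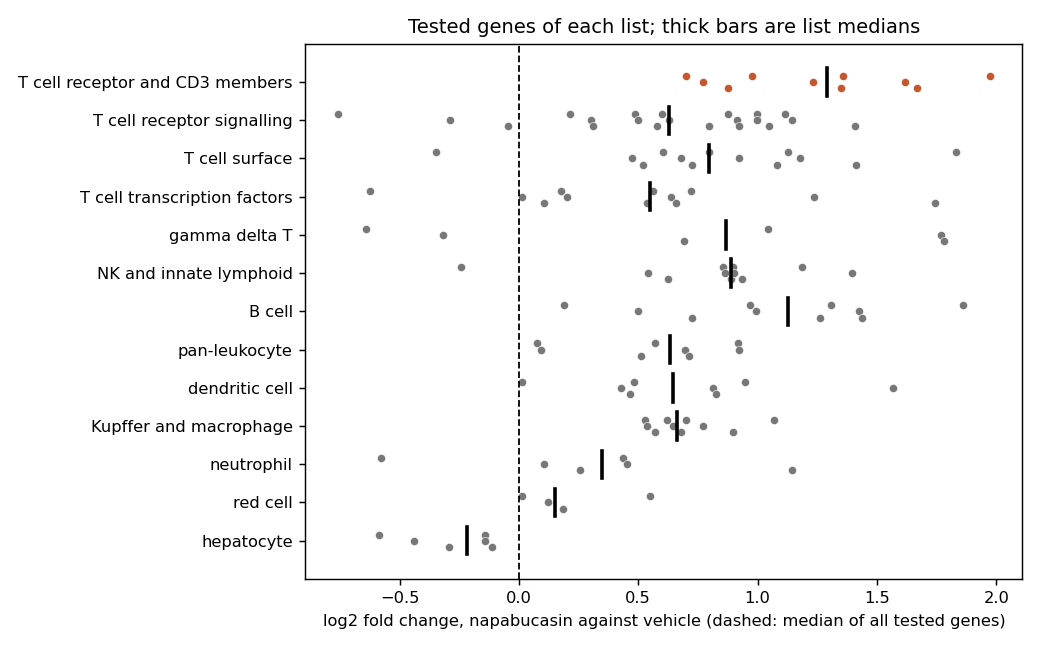
Log2 fold change, napabucasin over vehicle, of every tested gene (points) of the members and of each gene list with more than 2 tested genes; thick bars mark list medians, and the dashed line marks the median of all tested genes. The member median, 1.29, lies above that of B cell markers, 1.13, and all hepatocyte markers lie below 0.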

How the data were processed

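Per the labels' protocols, poly(A) RNA of mouse liver was made into libraries, 5 from vehicle and 5 from napabucasin mice. The authors deposited raw counts per gene and FPKM values. Per the submitters' processing notes, CASAVA, HISAT2 2.0.5, featureCounts 1.5.0-p3 and the GRCm38 (mm10) build were used; the strand setting, annotation release and FPKM formula were not given in the sources used here. Columns were matched to libraries by group and replicate number, and 0 columns lacked a sample. Gene positions were the same in GENCODE M21 for 53462 rows (98.3% of matched IDs), all 10 members included.

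Genes were filtered with edgeR's filterByExpr and scaled by TMM, and groups were compared in edgeR 4.0.16 by the quasi-likelihood test (R 4.3.3) on all 14244 tested genes, with Benjamini-Hochberg adjustment and a threshold of 0.05. Log2 fold changes come from this fit, and CPM values use the TMM library sizes. Alternatives were DESeq2 1.42.0, limma 3.58.1 (voom, and log2(FPKM + 1 or 0.1) of the deposited FPKM), other scalings, no filter, a replicate block and leaving out each library. Same-numbered libraries deviated together weakly (correlations 0.154 to 0.278, each over 0.1), and the numbers were taken to pair them in the block alternatives only. A library's own number was its closest match in both directions for replicates 3 and 4 only. For replicate 1 it was so in neither direction. The main fit had no replicate term, and the labels give no pairing.

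The members and gene lists were chosen with earlier results of these data known. All members were named, plus up to 4 genes a list with the smallest p, the first 3 of a marker list, up to 3 receptor segments and the 8 genes with the most similar pattern; some genes that this rule names are not reported here. Intervals on counts and shares cover counting error within a library only, not the spread between livers. Molecules carried no identifiers by which repeat copies could be told apart.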

Additional observations from a re-analysis of the deposited data

Results flagged for a closer look

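Cd3g in vehicle replicate 4 was 1.41 CPM, apart from the other 4 vehicle livers at 2.35 to 2.66 CPM. The gap to its nearest neighbour was 0.751 of the group's range, above the critical value of 0.71 in Dixon's test. It was the only value set apart among 26 groups examined, where chance gives about 1.3.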

How the results depend on the processing

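The log2 fold change of every member stayed above 0 under each alternative in which that member was tested; 194 of 204 member values were on the same side of the threshold as in the edgeR comparison, and 10 passed it where the reported value did not. Genes called over the whole table numbered 0 in the report, 1 with library sizes unscaled, 19 with no filter, 209 with DESeq2, 156 with limma-voom, 1 with limma on log2(FPKM + 0.1), 0 with the replicate block, 7 without the 2 libraries of highest mitochondrial share (a choice made after seeing the data), and 0 to 18 leaving out 1 library, 18 without vehicle replicate 1 and 3 without napabucasin replicate 5. Members called numbered 1 with no filter (Trbc1, adjusted p = 0.0343), 5 with DESeq2, 3 with limma-voom and 0 to 1 leaving out 1 library. Trbc1 and Trbc2 summed passed at 1.46 (log2) with no filter, 1.49 with DESeq2, 1.75 with limma-voom and 1.53 with the replicate block, and ranged from 1.38 to 1.72 leaving out 1 library, past the threshold without vehicle replicate 1. The block changed no other call. The cause of these differences was not tested. Members higher at an unadjusted p under 0.05 numbered 6 to 10 leaving out 1 library, where 5.88% to 11.3% of all tested genes did so. The member median was 0.70 in limma on log2(FPKM + 1), a scale that understates changes of low genes, and 1.26 on log2(FPKM + 0.1), both with a mean FPKM of at least 0.5, which dropped Cd3e, Cd247 and Cd4; it was 0.69 on log2(FPKM + 1) with no filter. Counts of 2 to 184 per member and library limit what can be seen.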

Other observations

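Reads on receptor variable, diversity and joining segments were few, with 4, 18, 15, 13 and 27 counts in vehicle replicates 1 to 5 and 20, 20, 52, 39 and 17 in napabucasin replicates 1 to 5. The number of segments above 0 was 2 to 13 per vehicle library and 4 to 20 per napabucasin library. The most counted was Trbv13-2, a beta chain variable segment, with 32 counts in all, at 0, 3, 2, 1 and 4 in vehicle and 0, 0, 9, 5 and 8 in napabucasin. Trgv2 had 20 counts and Trbd1 had 13. At this depth no comparison of single segments was made.

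Deviations from the group means were compared between each member and the mean of the other members over the 10 libraries, as a description of libraries that share depth and composition. Pearson's r was highest for Trac (0.679), Cd3g (0.621) and Cd3d (0.602) and lowest for Trbc1 (0.242), Lck (0.193) and Trbc2 (0.0786). Of 13333 other genes, those most like the mean member deviation were Gm11353 (0.919), E230029C05Rik (0.917), Ctcf (0.914), Cd27 (0.896), 4933421O10Rik (0.896), Cxcr6 (0.894), Hey1 (0.881) and Bcl2a1d (0.881). Cd27 and Cxcr6 are surface receptors of T and NK cells. The largest of many values was taken, so none is read as a relation.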
